A study of Mus musculus with 4 samples.

Results

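The 10 genes described here encode the path by which cells show internal peptides on MHC class I molecules: the class I heavy chains H2-K1 and H2-D1, their light chain B2m, the peptide transporter subunits Tap1 and Tap2, the loading factor Tapbp, the immunoproteasome subunits Psmb8, Psmb9 and Psmb10, and the class I transactivator Nlrc5. They were taken by gene symbol from a table of 22103 entries, and all 10 had an entry. RNA of the whole liver was sequenced for 4 male mice, 2 WT and 2 KO, which the methods of the study give as 8 weeks old. The KO mice carried Smarca4 f/f alleles with Alb-Cre, which removes Brg1, the ATPase of the SWI/SNF chromatin remodelling complex, from hepatocytes, and other liver cells keep the gene. WT mice were littermate controls with Brg1 intact, and every mouse in both groups received alcohol, given as 15 days of drinking in the labels and as a 2-week ethanol liquid diet closed by 1 ethanol gavage in the methods. There was no group without alcohol, so the values compare genotypes in alcohol-fed livers only.

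Class I molecules are made in nearly all nucleated cells. The proteasome cuts proteins into peptides, TAP carries these into the endoplasmic reticulum, tapasin (Tapbp) holds an empty heavy chain with B2m next to TAP until a peptide fits, and the complex then travels to the cell surface, where CD8 T cells read it. Interferon gamma replaces the catalytic subunits Psmb5, Psmb6 and Psmb7 by Psmb8, Psmb9 and Psmb10, which gives the immunoproteasome, and raises the whole path through Irf1 and Nlrc5. In the liver both hepatocytes and immune cells express class I.

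Values were FPKM, fragments counted per kilobase of transcript and scaled to the total of the library, and differences were tested with limma on log2(FPKM + 0.1) among the 12346 genes that averaged 0.1 FPKM or more over the 4 livers. The added 0.1 makes differences of low genes look smaller than they are. The study's threshold was used, an unadjusted p under 0.05 with a change of more than 2-fold, and with 2 livers against 2 no exact permutation test of the livers can go below a p of 0.333. Steps in the low values gave estimated depths of 72599106 to 80935546 reads per liver. Smarca4 stood at 1.78 and 1.95 FPKM in WT and at 0.608 and 0.579 FPKM in KO, a log2 difference of −1.50 with an unadjusted limma p of 0.000548, so the libraries follow their labels. Replicate 1 of both groups had a lower median gene than replicate 2. The medians were 0.71 and 0.66 against 0.98 and 0.98 on the log2 scale. This gap bears on the comparisons below, its cause was not tested, and not every gene followed it. Alb, for example, stood at 12486 and 10710 FPKM in WT and at 11975 and 12436 FPKM in KO. The KO to WT difference of the median gene was −0.02 on the log2 scale. Bulk liver values cannot tell apart fewer cells of a type from less RNA per cell.

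All 10 genes had a higher fitted level in the KO livers than in the WT livers, by 1.32% (Psmb10) to 60.3% (Psmb9) of the WT mean, and none of the 10 passed the test. Psmb9 and Psmb8, the interferon-inducible proteasome subunits, had the largest log2 differences, 0.66 and 0.47. The heavy chains H2-K1 and H2-D1 were close to each other at 0.29 and 0.28, while Tapbp and Psmb10 were near 0 at 0.04 and 0.03. The median of the 10 differences was 0.22 against −0.02 for all genes tested, and 46.1% of all genes tested had a log2 difference above 0. At the threshold of the study 0 of the 10 genes were called, where 0.437% of all genes tested were called higher, 0.543% lower and 0.980% in either direction. At an unadjusted limma p under 0.05 the count was also 0, where 1.02% of all genes were higher at that level. After Benjamini-Hochberg adjustment every one of the 10 had a limma p of 1, and no gene among the 12346 had an adjusted limma p under 0.05. In 5 of the 10 genes both KO livers lay above both WT livers (H2-K1, H2-D1, Psmb8, Psmb9 and Nlrc5), where 10.7% of all genes tested did so. This count depended on the livers used: it was 9 without WT replicate 2 and 8 without KO replicate 1, settings of 2 livers against 1 in which 35.9% and 44.8% of all genes tested had no overlap in that direction. The count of genes higher in KO was 6 without KO replicate 2 and 7 without WT replicate 1, where 31.1% and 31.4% of all genes tested were higher, and quantile normalization gave 9, with B2m at −0.12.

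**Figure D1:**
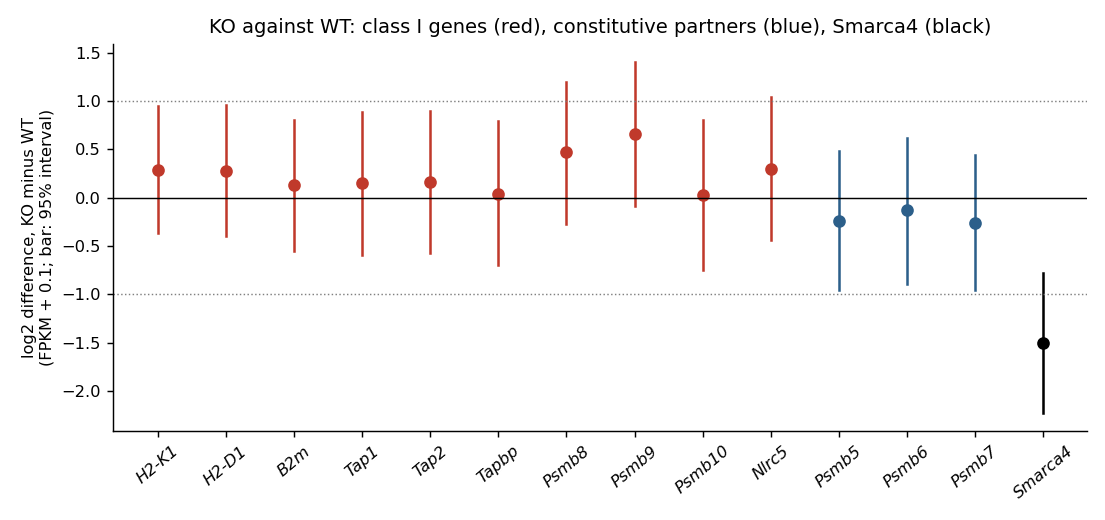
Log2 difference of KO minus WT livers, on log2(FPKM + 0.1), with the 95% interval from limma (2 livers per group); dotted lines mark a 2-fold change. The 10 class I genes (red) lie between 0.03 and 0.66 and each interval includes 0, the constitutive subunits Psmb5, Psmb6 and Psmb7 (blue) lie at −0.24, −0.13 and −0.26, and Smarca4 (black) lies at −1.50.

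H2-K1, which encodes the K heavy chain that binds the peptide, was by far the most abundant of the 10. It stood at 586 and 684 FPKM in WT replicates 1 and 2 and at 732 and 824 FPKM in KO replicates 1 and 2. Both KO livers were above both WT livers. The group means were 635 ± 68.8 FPKM in WT and 778 ± 65.0 FPKM in KO (SD, n = 2 each), 22.4% higher in KO. The log2 difference of 0.29 had a standard error of 0.30 and a 95% interval of −0.36 to 0.95, and the unadjusted limma p was 0.352. Depth was no limit here, since H2-K1 held an estimated 88948 to 112043 reads per liver. The table lists this gene under the transcript ENSMUST00000114311, of 6 exons and 1874 bases at chr17:33996018-34000283 on the minus strand of GRCm38, which GENCODE M21 classes as a retained intron transcript.

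H2-D1 encodes the D heavy chain, a close relative of the K chain. Its values were 72.1 and 79.1 FPKM in the WT livers and 88.6 and 95.4 FPKM in KO, again with no overlap. The means were 75.6 ± 4.98 FPKM in WT and 92.0 ± 4.82 FPKM in KO (SD, n = 2 each), 21.7% higher in KO. The log2 difference was 0.28, with a standard error of 0.32, a 95% interval of −0.40 to 0.96 and an unadjusted limma p of 0.387. Heavy chain genes are near copies of each other, and reads could be shared between them. Of the 150-base windows of the listed H2-D1 transcript, 35 of 1953 also occurred in a transcript of H2-Q1, and none of the 1725 windows of H2-K1 occurred in a transcript of another gene.

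B2m encodes the light chain that every class I heavy chain needs. It stood at 249 and 314 FPKM in WT and at 287 and 324 FPKM in KO, so the groups overlapped. The means were 281 ± 46.0 FPKM and 306 ± 26.4 FPKM (SD, n = 2 each), 8.73% higher in KO, and the limma p was 0.691 for a log2 difference of 0.13. A ratio of 2 genes in the same liver does not depend on the scale of the library. H2-K1 stood to B2m at 236% and 218% in WT and at 255% and 254% in KO. H2-D1 stood to B2m at 29.0% and 25.3% in WT and at 30.9% and 29.4% in KO. In both ratios the KO livers were above the WT livers, 1.12-fold and 1.11-fold, and the two-sided exact permutation p was 0.333 for each, the smallest that 2 against 2 allows.

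**Figure D2:**
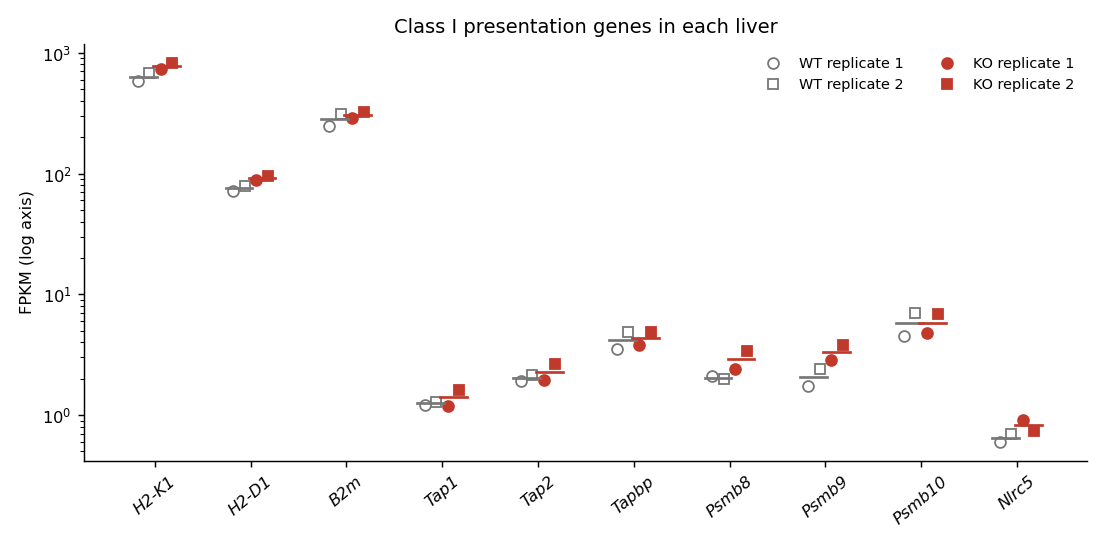
FPKM of the 10 genes in each liver on a log axis, with WT replicates as open grey symbols, KO replicates as filled red symbols (circle, replicate 1; square, replicate 2) and horizontal lines at the group means. H2-K1 lies between 586 and 824 FPKM and Nlrc5 between 0.596 and 0.908 FPKM, and the symbols of the groups overlap for B2m, Tap1, Tap2, Tapbp and Psmb10.

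The promoters of these genes are shown because classical class I genes are known for a shared set of control elements, and because the 2 heavy chains had nearly the same difference here. RefSeq (GRCm38.p6) gave a promoter for 8 of the 10 genes, from 250 bases before to 50 bases after the start, and Tap2 and Nlrc5 had no entry. The 250 bases before the start are printed 5′ to 3′, with capitals for the motifs searched on both strands: CCAAT (the core of the Y box, read by NF-Y), TGACG (part of the X2 box, read by CREB factors), GAAANNGAA and GAANNGAAA (spacings found in interferon response elements, read by IRF factors) and GGGATTCCC (an NF-kB site of the class I enhancer).

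H2-K1 (chr17:34000334-34000583, minus strand): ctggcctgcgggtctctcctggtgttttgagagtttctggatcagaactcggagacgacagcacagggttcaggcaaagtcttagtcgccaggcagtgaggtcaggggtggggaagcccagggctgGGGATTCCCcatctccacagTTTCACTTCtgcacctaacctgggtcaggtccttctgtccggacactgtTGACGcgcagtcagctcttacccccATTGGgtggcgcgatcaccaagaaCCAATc
H2-D1 (chr17:35262844-35263093, plus strand): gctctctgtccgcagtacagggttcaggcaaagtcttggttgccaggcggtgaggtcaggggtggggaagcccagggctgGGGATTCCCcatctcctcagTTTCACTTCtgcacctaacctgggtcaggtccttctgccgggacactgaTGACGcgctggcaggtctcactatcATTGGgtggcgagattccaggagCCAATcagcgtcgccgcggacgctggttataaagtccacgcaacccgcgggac
B2m (chr2:122147437-122147686, plus strand): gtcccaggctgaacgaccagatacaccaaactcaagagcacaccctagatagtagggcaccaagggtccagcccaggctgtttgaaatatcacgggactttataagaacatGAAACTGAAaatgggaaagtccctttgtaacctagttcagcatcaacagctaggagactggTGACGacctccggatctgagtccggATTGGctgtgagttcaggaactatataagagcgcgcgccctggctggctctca
Tap1 (chr17:34187306-34187555, plus strand): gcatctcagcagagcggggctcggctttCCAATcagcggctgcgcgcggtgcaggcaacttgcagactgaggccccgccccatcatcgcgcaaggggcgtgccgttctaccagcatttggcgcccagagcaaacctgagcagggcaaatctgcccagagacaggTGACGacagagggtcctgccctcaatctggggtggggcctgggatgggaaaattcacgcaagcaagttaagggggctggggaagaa

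In the windows of 300 bases, the H2-K1 and H2-D1 promoters were identical at 217 of 241 aligned bases (90.0%), with 1 gap base. Both held GGGATTCCC, starting 124 bases before the RefSeq start in H2-K1 and 170 bases before it in H2-D1, and this motif occurred in 112 of 27025 gene promoters of the same length (0.414%). Downstream of it both held GAANNGAAA on the other strand, as TTTCACTTC, which 8.68% of all promoters hold. B2m held GAAACTGAA, a match to GAAANNGAA, which 9.76% of all promoters hold. CCAAT was found in 6 of the 8 promoters (H2-K1, H2-D1, B2m, Tap1, Tapbp and Psmb9) against 41.1% of all, and TGACG in 5 of the 8 (the same without Tapbp) against 6228 of the 27025 promoters. Psmb9 and Tap1 are transcribed away from each other from starts that lie 226 bases apart, so 275 bases of their windows are the same DNA, and the Tap1 sequence above, read on the opposite strand, is also most of the Psmb9 promoter. No matches overlap each other in the sequences shown. Psmb8 and Psmb10 held none of the motifs in this window. The RefSeq start of H2-D1 lies inside the longer transcript that the table lists. A motif match is a description of letters, and binding was not measured in these data.

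Tap1 and Tap2 are the 2 subunits of the peptide transporter. Tap1 stood at 1.21 and 1.29 FPKM in WT and at 1.19 and 1.62 FPKM in KO. Tap2 stood at 1.90 and 2.13 FPKM in WT and at 1.95 and 2.63 FPKM in KO. In each gene KO replicate 2 was the highest liver, and KO replicate 1 did not exceed WT replicate 2. The log2 differences were 0.15 (95% interval −0.59 to 0.89) and 0.16 (−0.57 to 0.90), with limma p-values of 0.672 and 0.639. Without KO replicate 2 they were −0.06 and −0.04, where the median over all genes tested was −0.17.

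Tapbp, which encodes tapasin, stood at 3.50 and 4.90 FPKM in WT and at 3.77 and 4.85 FPKM in KO. The KO values lay inside the WT range. The log2 difference was 0.04 with a limma p of 0.900. Of Tap1, Tap2 and Tapbp, 0 of the 3 were free of overlap, where 20.7% of all genes tested were in either direction. Their median was 0.15, against 0.28 over H2-K1, H2-D1 and B2m. The difference between these roles was not tested.

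Psmb8 encodes the immunoproteasome subunit LMP7, which takes the place of Psmb5. It stood at 2.10 and 1.98 FPKM in WT and at 2.40 and 3.39 FPKM in KO, with no overlap. The means were 2.04 ± 0.083 FPKM and 2.89 ± 0.697 FPKM (SD, n = 2 each), 41.8% higher in KO. The log2 difference was 0.47 with a standard error of 0.34, a 95% interval of −0.27 to 1.20 and a limma p of 0.199. The difference was 0.23 without KO replicate 2 and 0.70 without KO replicate 1, where the median over all genes tested was −0.17 and 0.12. The log2 difference of the Psmb8 to Psmb5 ratio within a liver was 0.63 and 0.78 in these settings. The estimated reads were 324 and 302 in WT and 358 and 469 in KO.

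Psmb9 encodes LMP2, which takes the place of Psmb6. It stood at 1.75 and 2.39 FPKM in WT and at 2.85 and 3.79 FPKM in KO, so that the lower KO liver was above the higher WT liver. The means were 2.07 ± 0.455 FPKM and 3.32 ± 0.665 FPKM (SD, n = 2 each), 60.3% higher in KO. The log2 difference of 0.66 had a standard error of 0.35 and a 95% interval of −0.09 to 1.41, and the limma p was 0.0813 before adjustment and 1 after it. Within each group the lower value was that of replicate 1, the liver with the lower median gene. With median-ratio rescaling the unadjusted limma p was 0.0149, and it was 0.0156 after quantile normalization. In these settings 353 and 367 of all genes tested had an unadjusted p under 0.05, against 247 on the deposited scale. Without KO replicate 1 the log2 difference was 0.86. Over the alternatives the difference ran from 0.44 to 0.87 and stayed under the 2-fold threshold. The estimated reads were 408 and 551 in WT and 642 and 793 in KO.

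Psmb10 encodes MECL-1, which takes the place of Psmb7. It stood at 4.53 and 6.97 FPKM in WT and at 4.75 and 6.90 FPKM in KO. The gap between replicates was far larger than that between groups. Its log2 difference was 0.03, with a 95% interval of −0.75 to 0.81 and a limma p of 0.943.

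The constitutive partners of these subunits had values on the other side of 0. Psmb5 stood at 32.0 and 41.5 FPKM in WT and at 27.5 and 34.6 FPKM in KO. Psmb6 stood at 6.51 and 8.99 FPKM in WT and at 5.83 and 8.33 FPKM in KO. Psmb7 stood at 36.5 and 45.2 FPKM in WT and at 31.6 and 36.4 FPKM in KO, with both KO livers below both WT livers. None of the 3 passed the test, with log2 differences of −0.24, −0.13 and −0.26 and limma p-values of 0.488, 0.711 and 0.443.

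Set as ratios within a liver, the immunoproteasome subunits were further apart between the groups than as single levels. Psmb9 was 28.0% and 27.4% of Psmb6 in the WT livers and 49.7% and 46.1% in KO, 1.73-fold higher in KO. Replicates of a group were close in this ratio, with log2 gaps of 0.03 in WT and 0.11 in KO against a group difference of 0.79. Psmb8 was 6.85% and 5.01% of Psmb5 in WT and 9.07% and 10.04% in KO, 1.63-fold higher, with a gap of 0.45 between the WT livers. Psmb10 was 12.7% and 15.6% of Psmb7 in WT and 15.3% and 19.2% in KO, and the groups overlapped. The sum of the 3 immunoproteasome subunits was 11.3% and 12.0% of the sum of the 3 constitutive ones in WT and 15.5% and 17.8% in KO, a 1.43-fold difference. The two-sided exact permutation p was 0.333 for the Psmb9, Psmb8 and summed ratios, the smallest possible, and 0.667 for Psmb10. Psmb8, Psmb9 and Psmb6 are listed under retained intron transcripts, so the height of a ratio depends on the listed lengths. Whether these values count all reads of the gene or those of the listed transcript is not given in the sources used here, and in the second case the comparison between livers would be one of that transcript.

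**Figure D3:**
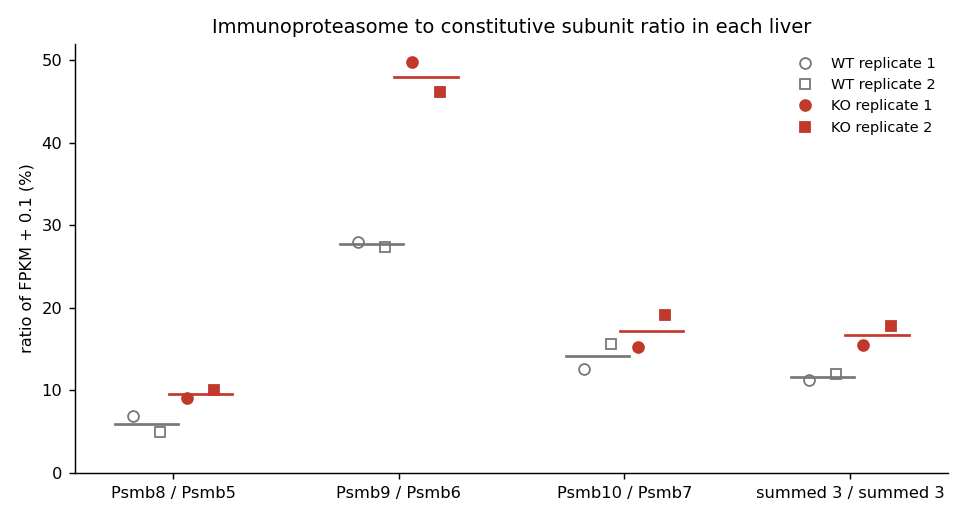
Ratio of each immunoproteasome subunit to the constitutive subunit it replaces, from FPKM + 0.1 in the same liver, with WT replicates as open grey symbols, KO replicates as filled red symbols and lines at group means. Psmb9 to Psmb6 lies at 27.4% to 28.0% in WT and at 46.1% to 49.7% in KO, and the groups overlap for Psmb10 to Psmb7.

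Nlrc5, the transactivator that drives class I promoters, had the lowest level of the 10. It stood at 0.596 and 0.694 FPKM in WT and at 0.908 and 0.730 FPKM in KO, with no overlap. The means were 0.645 ± 0.0691 FPKM and 0.819 ± 0.126 FPKM (SD, n = 2 each), 27.0% higher in KO. The log2 difference was 0.30, with a 95% interval of −0.44 to 1.04 and a limma p of 0.401, and it was 0.16 without KO replicate 1. Its listed transcript has 49 exons and 6945 bases and held an estimated 335 to 493 reads per liver.

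In order of mean FPKM over the 4 livers, the genes ran H2-K1, B2m, H2-D1, Psmb10, Tapbp, Psmb9, Psmb8, Tap2, Tap1 and Nlrc5. H2-K1, B2m and H2-D1 were separated from each other and from the rest by more than their spread, with lowest and highest values of 586 and 824, 249 and 324, and 72.1 and 95.4 FPKM. The ranges of Psmb10, Tapbp, Psmb9, Psmb8 and Tap2 overlapped with their neighbours in this order, while the highest Tap1 value of 1.62 FPKM lay below the lowest Tap2 value of 1.90 FPKM, and the highest Nlrc5 value of 0.908 FPKM below the lowest Tap1 value of 1.19 FPKM. This order depends on the listed transcript, and 4 of the 10 genes (H2-K1, Tap1, Psmb8 and Psmb9) are listed under retained intron transcripts. Those 4 had a median log2 difference of 0.38, and the 6 listed under protein-coding transcripts had one of 0.15.

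The rest of the class I heavy chain family was close to H2-K1 and H2-D1. Of 13 tested heavy chain genes (H2-K1, H2-D1 and 11 H2-Q, H2-T and H2-M genes), 13 had a log2 difference above 0, between 0.12 and 0.35 with a median of 0.29, and none passed the test. In 12 of the 13 both KO livers were above both WT livers, against 10.7% of all genes tested. H2-T23, which encodes Qa-1, stood at 93.2 and 101 FPKM in WT and at 104 and 129 FPKM in KO. H2-T22 stood at 72.0 and 86.0 FPKM in WT and at 90.9 and 98.9 FPKM in KO. The exception was H2-Q10, a secreted class I molecule made by the liver, with 75.1 and 81.8 FPKM in WT and 90.3 and 80.8 FPKM in KO. All 13 differences stayed above 0 with each liver left out, after median-ratio rescaling and after quantile normalization. The count free of overlap was 11 and 10 after the 2 rescalings, where 13.6% and 13.5% of all genes tested had both KO livers above both WT livers. It was 12 to 13 with 1 liver left out, where that share was 15.3% to 44.8%. These genes are not independent of each other, and some share sequence. The highest shares of 150-base windows that occur in transcripts of other genes were 6.87% for H2-Q7 and 5.99% for H2-Q6. H2-K1, H2-Q2, H2-Q4, H2-T3, H2-T22, H2-T24 and H2-M3 had no such window. Class I-like genes outside the H2 group were different in sign from one to another: Mr1, Cd1d1, Fcgrt, Hfe and Azgp1 had a median of −0.03, with 2 above 0 and 3 below, and none passed the test.

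**Figure D4:**
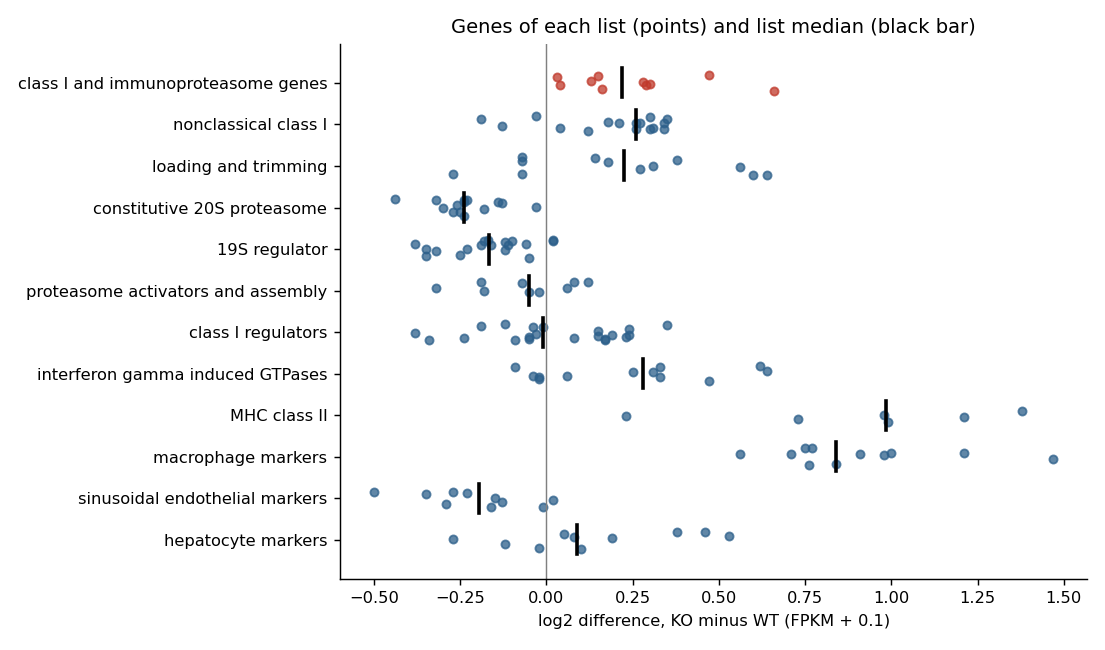
Log2 difference of KO minus WT livers for the genes of each list (points, one per tested gene) with the list median as a black bar. The class I and immunoproteasome genes (red) have a median of 0.22, the constitutive 20S proteasome −0.24, MHC class II 0.99 and the macrophage markers 0.84; points are spread vertically at random.

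All 14 constitutive 20S subunits tested had a log2 difference below 0, from −0.44 (Psma1) to −0.03 (Psmb2) with a median of −0.24, and none passed the test. In 2 of the 14, Psmb4 and Psmb7, both KO livers were below both WT livers, and in none were both above, where 20.7% of all genes tested had no overlap in either direction. All 14 stayed below 0 after median-ratio rescaling and quantile normalization, and in 11 of them both KO livers were then below both WT livers, where 15.3% and 15.9% of all genes tested were. Without WT replicate 2, 5 of the 14 were above 0, and without KO replicate 1, 6 were, where 68.2% and 65.8% of all genes tested were above 0. Of 18 subunits of the 19S regulator, which recognises ubiquitinated proteins, 16 were below 0 and 2 above with a median of −0.16, though 10 were above 0 without KO replicate 1 (median 0.03). Of 9 activator and assembly genes 6 were below 0 and 3 above, and Psme1 and Psme2, the interferon-inducible PA28 subunits, had overlapping groups. No gene of these lists passed the test. Psme1 stood at 6.45 and 8.78 FPKM in WT and at 7.82 and 7.89 FPKM in KO.

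Among 12 genes of peptide trimming and loading, 8 were above 0 and 4 below with a median of 0.23, and none passed the test. Without KO replicate 2 the median was −0.14, where that of all genes tested was −0.17. Calr and Pdia3, chaperones of the loading complex, were high in that liver alone: Calr stood at 187 and 142 FPKM in WT and at 145 and 420 FPKM in KO, and Pdia3 at 27.7 and 24.6 FPKM in WT and at 22.5 and 73.2 FPKM in KO. Erap1, the peptidase that trims class I peptides in the endoplasmic reticulum, stood at 2.34 and 2.69 FPKM in WT and at 3.05 and 3.24 FPKM in KO, with no overlap and a log2 difference of 0.31 that did not pass the test.

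Of 21 tested genes of the interferon receptors and their signalling proteins, IRF factors, NF-kB and the class I enhanceosome, 10 were above 0 and 11 below with a median of −0.01, and none passed the test. This split moved with the KO liver left out. Without KO replicate 1, 17 of the 21 were above 0 (median 0.32), where 65.8% of all genes tested were (median 0.12). Without KO replicate 2, 2 of the 21 were above 0 (median −0.16), where 31.1% of all genes tested were (median −0.17). Irf1, an interferon-induced activator of class I genes, stood at 2.76 and 3.07 FPKM in WT and at 1.66 and 2.96 FPKM in KO, and the groups overlapped. Rfx5, part of the complex that binds the X1 box and recruits Nlrc5, had a log2 difference of −0.19. Ifng was listed at 0 in all 4 livers. The GTPases that interferon gamma induces gave 8 of 12 tested genes above 0, with a median of 0.28 and none past the test. This sign was lost without KO replicate 2, where their median was −0.25 and that of all genes tested −0.17. Iigp1, the most abundant of them, stood at 27.5 and 21.3 FPKM in WT and at 20.5 and 27.7 FPKM in KO.

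Macrophage markers and the listed MHC class II genes were also higher in the KO livers. All 11 macrophage markers had a log2 difference above 0 with a median of 0.84, and none was at 0 in any liver. Of the 11, 6 were higher at an unadjusted limma p under 0.05 (1.02% of all genes tested) and 3 past the threshold (0.437%). Their summed level was 48.8 to 49.9 FPKM in WT and 63.2 to 139 FPKM in KO, with the highest sum in KO replicate 2, and the median was 0.25 without that liver. The number at an unadjusted limma p under 0.05 fell without WT replicate 1, WT replicate 2 or KO replicate 2. It rose without KO replicate 1. With 1 liver left out the median of the markers ran from 0.25 to 1.39. With no filter on low values 1 of the 11 had an unadjusted limma p under 0.05, where 430 of 16853 genes had. The 6 listed MHC class II genes, which present peptides in macrophages, dendritic cells and B cells, were all above 0 with a median of 0.99. H2-DMb2, a class II gene outside this list, had a log2 difference of −0.165 and overlapping groups. Of the 6, H2-Aa and H2-Eb1 were past the threshold, where 0.437% of all genes tested were higher. At an unadjusted limma p under 0.05 there were 4 of the 6, against 1.02% of all genes tested. This number fell without WT replicate 1. With 1 liver left out the median of the 6 was 0.85 to 1.13. Their summed level was 6.84 to 8.25 FPKM in WT and 16.2 to 16.6 FPKM in KO. T cell markers were low, with 4 of 8 tested and sums of 0.651 to 0.757 FPKM in WT and 0.702 to 1.47 FPKM in KO. Cd8a, too low to be tested, was listed at 0 in both WT livers. In KO it was at 0.0163 and 0.0088 FPKM, an estimated 4 and 2 reads. No NK cell marker of 7 and 1 B cell marker of 5 reached the level for testing. The 3 of 7 dendritic cell markers tested had a median of −0.11 and sums of 0.904 to 1.06 FPKM in WT and 0.825 to 0.919 FPKM in KO. The 6 of 8 neutrophil markers tested had a median of 0.28 and sums of 4.46 to 11.7 FPKM in WT and 8.16 to 16.6 FPKM in KO. Hepatocyte markers (10 of 10 tested) had a median of 0.09 and cholangiocyte markers (4 of 5) −0.23. Sinusoidal endothelial markers (10 of 10) had a median of −0.19. Without KO replicate 1 the sinusoidal median was 0.20, where that of all genes tested was 0.12. Stellate cell markers (10 of 10) gave 4 above 0 and 6 below. The part of these cells in the class I values was not tested.

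Of the 10 genes, 7 lie within the MHC region of chromosome 17, in a stretch of 1348 kb from Tapbp to H2-D1 (chr17:33919332-35267499, GRCm38), and B2m lies on chromosome 2 and Psmb10 and Nlrc5 on chromosome 8. The 7 had log2 differences of 0.04 to 0.66 with a median of 0.28. Of 62 tested neighbours in the stretch 30 were above 0 and 32 below, with a median of −0.04. In 6 of the 62 both KO livers were above both WT livers and in 7 both were below. Of all genes tested, 10.7% had both KO livers above, and 20.7% had no overlap in either direction. The 2 neighbours past the threshold were the class II genes H2-Aa and H2-Eb1, where 0.980% of all genes tested were past it. Without the 5 class II genes of the class II list 57 neighbours remained, with 25 above 0, 32 below and none past the threshold. These 57 include the class II gene H2-DMb2, at −0.165. Psmb9, Tap1, Psmb8 and Tap2 are adjacent, yet their differences ran from 0.15 to 0.66.

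**Figure D5:**
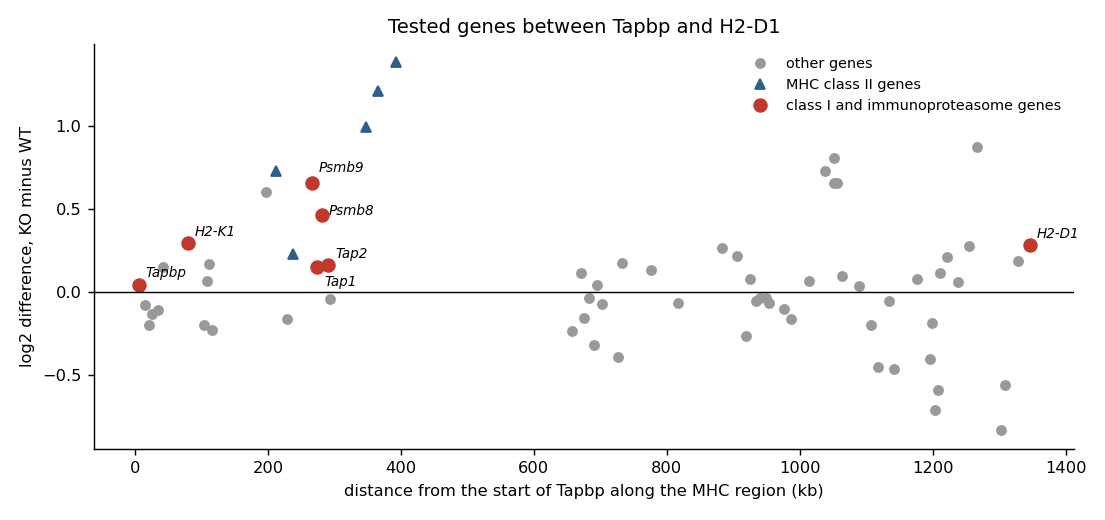
Log2 difference of KO minus WT livers for the tested genes between Tapbp and H2-D1, against distance in kb from the start of Tapbp. The 7 class I and immunoproteasome genes (red) lie between 0.04 and 0.66, and the listed class II genes (blue triangles) reach 1.38. The 57 other genes (grey, the class II gene H2-DMb2 among them) lie on both sides of 0 with a median of −0.04.

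Across the 4 livers, the mean profile of the 10 genes on the centred log2 scale was −0.25 and 0.00 in WT and −0.01 and 0.26 in KO. The second WT liver and the first KO liver thus had nearly the same mean level, and the distance between the replicates of a group was about as large as that between the groups. H2-K1 was the nearest of the 10 to this profile, at a Euclidean distance of 0.0889, and Psmb9 the farthest at 0.434. Among 7724 other genes at an average of 1 FPKM or more, the nearest were entries named IL11RA2 and Il11ra2, Eif4enif1 and Gm13305, at distances of 0.0114 to 0.0313. Eif4enif1 stood at 1.17 and 1.43 FPKM in WT and at 1.39 and 1.69 FPKM in KO. Likeness over 4 livers describes these libraries only, and the profile includes the lower median of replicate 1 in both groups.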

How the data were processed

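Processing followed the table as deposited. The authors used Trimmomatic for trimming, HISAT2 for mapping to GRCm38 and, according to the methods, Cufflinks for FPKM, while the submitters' processing notes name HISAT2 2.0.4 and StringTie 2.1.4. Methods describe stranded TruSeq libraries and the labels a BGIseq protocol. No scaling between libraries is given in the sources used here. The deposited FPKM table has 22103 entries, of which 5250 were at 0 in all livers. Symbols turned into dates (27) were restored, and 3 listed genes stood under other symbols.

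The test was limma 3.58.1 (R 4.3.3, eBayes with trend), run over the 12346 genes averaging 0.1 FPKM or more, on log2(FPKM + 0.1), checked on simulated data. Ratios were compared with exact permutation tests in SciPy 1.17.1. The 2 livers per group are taken as separate mice. Depth was estimated from FPKM steps on transcripts of at least 2000 bases, where 88.4% to 89.5% of low values were whole within 0.1 reads. Such reads are estimates. The genes, lists and the naming rule (each of the 10 genes, listed genes where a result turns on them, and the 5 entries nearest in profile) were chosen with earlier results of these data known. Alternatives were pseudocounts of 1 and 0.01, no filter or one at 1 FPKM, leaving out each liver, a replicate block, quantile normalization, median-ratio rescaling and an untrended eBayes.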

Additional observations from a re-analysis of the deposited data

How the results depend on the processing

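With 2 livers per group, the 95% intervals of the 10 genes all included 0, with upper bounds of 0.79 to 1.41 on the log2 scale. None of the 10 genes passed the threshold or an adjusted limma p under 0.05 under any of the 12 alternatives. With every liver kept, Psmb9 alone reached an unadjusted limma p under 0.05. This gave a count of 1 in place of 0 with median-ratio rescaling, quantile normalization and the replicate block. Leaving out a liver leaves 1 in its group, so only the size is given for those settings. The log2 difference of Psmb9 then ran from 0.44 to 0.87. Whether equal replicate numbers pair the livers was not tested. Replicate 1 minus replicate 2 correlated at 0.03 between the groups over 12346 genes, a measure that leaves out a shift common to all genes. The median absolute log2 difference was 0.23 between the livers of replicate 1 and 0.26 between those of replicate 2. It was 0.31 within WT, 0.40 within KO, and 0.33 and 0.38 between WT and KO livers of unequal number. The replicate block changed no other call among the 10 genes, and gave 357 in place of 247 of all genes at an unadjusted p under 0.05.

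With each liver left out, 5 to 9 genes had KO above WT (15.3% to 44.8% of all genes), 6 to 10 were above 0 (31.1% to 68.2% of all genes), the median of the 10 was 0.12 to 0.35 and the summed immunoproteasome ratio 0.42 to 0.62 (log2), while the median over all genes moved to −0.17 or 0.12. The differences then ran from −0.04 to 0.30 for B2m, −0.06 to 0.35 for Tap1, −0.04 to 0.37 for Tap2, −0.19 to 0.28 for Tapbp and −0.28 to 0.33 for Psmb10. These reversals came without WT replicate 1 (B2m, Tapbp, Psmb10) or without KO replicate 2 (Tap1, Tap2, Tapbp at −0.13, Psmb10 at −0.24), and quantile normalization put B2m at −0.12. The cause was not tested. A filter at a mean of 1 FPKM left out Nlrc5, and a pseudocount of 1 took the Smarca4 difference to −0.85.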
